A study of Mus musculus with 10 samples.

Results

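Accessible chromatin of 9 genes that hold lymphocytes in a tissue or let them leave it was examined in group 2 innate lymphoid cells (ILC2s), tissue-dwelling lymphocytes that make type 2 cytokines. The genes were the integrin subunits *Itga4*, *Itgb7*, *Itgae*, *Itga1*, *Itgb1*, *Itgal* and *Itgb2*, the sphingosine-1-phosphate receptor *S1pr1* and the activation antigen *Cd69*. A region of the accessibility table belonged to one of them when its centre lay inside the gene or when the nearest curated RefSeq transcription start site was that of the gene. This gave 84 of the 50039 regions. Of these, 28 lay at *Itga4*, 16 at *S1pr1*, 8 at *Itgae*, 7 at *Itga1*, 6 each at *Cd69* and *Itgb2*, 5 at *Itgal* and 4 each at *Itgb1* and *Itgb7*. All 84 had reads and were tested.

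Accessibility had been measured by ATAC-seq, in which a transposase cuts open DNA, in ILC2s of 5 tissues of male C57BL/6 mice aged 6 weeks: lung, pancreas, bone marrow (BM), and the large (LI) and small intestine (SI). Each tissue had 2 libraries from 50000 sorted cells, with 16 mice pooled for BM, lung and pancreas and 10 for LI and SI. BM cells were gated as Lin–ST2+CD25+ on one sorter, LI, lung and pancreas cells as Lin–CD45+CD127+ST2+CD25+ on another, and SI cells on that second sorter by KLRG1 in place of ST2 and CD25. Gate and sorter therefore changed with tissue, and their part cannot be told apart from that of the tissue. The labels name no engineered allele and no agent, and the study calls the 2 libraries of a tissue biological duplicates without saying whether each had its own pool of mice, so p-values measure the spread between libraries.

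An integrin is a heterodimer of an α and a β chain. The α4 chain (*Itga4*) with β7 (*Itgb7*) binds the gut addressin MAdCAM-1, αE (*Itgae*) with β7 binds E-cadherin on epithelium, αL (*Itgal*) with β2 (*Itgb2*) forms LFA-1, which binds ICAM-1, and α1 (*Itga1*) with β1 (*Itgb1*) binds collagen. S1PR1 senses the lipid that guides lymphocytes from tissue into lymph and blood, and CD69 pairs with S1PR1 in the membrane and has it taken into the cell. Surface CD69 and αEβ7 are common marks of tissue-resident lymphocytes.

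The 10 regions on which the results turn most are shown first, each as the central 300 bases on the plus strand of GRCm38 (the build the study calls mm10), read from the RefSeq assembly. A region is named by its gene and the distance of its centre from the start site, positive in the direction of transcription. Capitals mark every match, on either strand, to 8 short motifs: AGATAA for the GATA factors, TGTGGT for RUNX, GGGNGTG for KLF, AGGTCA for ROR, TGANTCA for AP-1, GCGTG for AHR, AANNGAAA for IRF and AGGAAGT for ETS. The AHR letters can lie inside a KLF match, and the other 6 motifs do not contain one another. The first 7 were lower in BM in at least 1 test or differed most at their gene, and the last 3 were high in an intestine.
S1pr1 -74.3 kb, chr3:115789187-115789486: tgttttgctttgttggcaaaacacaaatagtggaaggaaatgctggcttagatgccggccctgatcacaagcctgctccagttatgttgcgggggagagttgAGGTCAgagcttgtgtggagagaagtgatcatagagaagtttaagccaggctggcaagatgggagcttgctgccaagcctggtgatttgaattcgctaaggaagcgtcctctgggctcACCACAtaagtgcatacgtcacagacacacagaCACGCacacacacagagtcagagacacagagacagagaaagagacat
S1pr1 -43.6 kb, chr3:115758484-115758783: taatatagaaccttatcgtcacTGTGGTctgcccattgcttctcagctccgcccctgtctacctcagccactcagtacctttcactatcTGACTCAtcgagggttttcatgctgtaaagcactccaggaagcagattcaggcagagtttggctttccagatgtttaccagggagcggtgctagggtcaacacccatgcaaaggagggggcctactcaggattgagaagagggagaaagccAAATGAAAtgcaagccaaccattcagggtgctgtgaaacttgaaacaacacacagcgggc
S1pr1 +41.1 kb, chr3:115673832-115674131: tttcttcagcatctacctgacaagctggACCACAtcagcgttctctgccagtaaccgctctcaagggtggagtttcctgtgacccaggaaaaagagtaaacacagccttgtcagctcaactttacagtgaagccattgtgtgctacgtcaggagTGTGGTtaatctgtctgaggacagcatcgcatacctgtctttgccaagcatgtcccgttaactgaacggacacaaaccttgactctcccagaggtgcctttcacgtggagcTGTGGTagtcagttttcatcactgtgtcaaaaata
Itgae -6.1 kb, chr11:73084322-73084621: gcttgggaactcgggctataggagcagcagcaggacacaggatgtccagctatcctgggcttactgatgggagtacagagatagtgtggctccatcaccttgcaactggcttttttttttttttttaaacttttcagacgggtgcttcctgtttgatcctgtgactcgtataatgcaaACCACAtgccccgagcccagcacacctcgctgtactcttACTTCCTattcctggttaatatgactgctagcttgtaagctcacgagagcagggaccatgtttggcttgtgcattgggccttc
Itgae +4.2 kb, chr11:73094630-73094929: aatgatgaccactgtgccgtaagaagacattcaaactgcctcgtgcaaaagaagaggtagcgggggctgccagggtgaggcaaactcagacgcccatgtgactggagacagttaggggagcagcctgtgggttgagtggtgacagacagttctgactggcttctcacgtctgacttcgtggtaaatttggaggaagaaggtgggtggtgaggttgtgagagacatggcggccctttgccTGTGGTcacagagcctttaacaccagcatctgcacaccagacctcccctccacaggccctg
Itgb7 +923 bp, chr15:102230863-102231162: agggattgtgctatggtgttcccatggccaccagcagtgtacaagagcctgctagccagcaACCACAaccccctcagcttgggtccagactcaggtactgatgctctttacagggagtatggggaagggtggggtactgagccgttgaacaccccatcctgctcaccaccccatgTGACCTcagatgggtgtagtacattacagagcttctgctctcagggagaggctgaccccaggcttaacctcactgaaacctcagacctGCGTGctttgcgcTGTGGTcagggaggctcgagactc
Itgb7 +6.5 kb, chr15:102225251-102225550: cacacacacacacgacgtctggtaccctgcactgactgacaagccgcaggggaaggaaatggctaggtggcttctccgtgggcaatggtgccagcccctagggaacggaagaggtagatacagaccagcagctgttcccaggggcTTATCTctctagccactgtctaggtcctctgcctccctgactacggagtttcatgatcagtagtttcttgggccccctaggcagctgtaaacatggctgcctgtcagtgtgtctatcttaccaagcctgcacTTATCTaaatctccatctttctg
Cd69 +8.7 kb, chr6:129266563-129266862: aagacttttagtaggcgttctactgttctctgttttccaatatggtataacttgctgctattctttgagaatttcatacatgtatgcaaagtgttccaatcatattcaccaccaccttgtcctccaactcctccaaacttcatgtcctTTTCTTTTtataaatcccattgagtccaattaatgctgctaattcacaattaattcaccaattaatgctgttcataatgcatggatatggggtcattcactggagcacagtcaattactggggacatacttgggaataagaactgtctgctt
Itga4 -27.5 kb, chr2:79227744-79228043: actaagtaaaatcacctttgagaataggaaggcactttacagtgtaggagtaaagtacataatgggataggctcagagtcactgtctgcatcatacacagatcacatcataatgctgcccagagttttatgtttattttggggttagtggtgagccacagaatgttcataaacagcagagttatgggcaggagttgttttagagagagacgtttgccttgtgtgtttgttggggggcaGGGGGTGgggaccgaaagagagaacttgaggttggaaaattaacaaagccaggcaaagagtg
Itga1 +90.2 kb, chr13:115011568-115011867: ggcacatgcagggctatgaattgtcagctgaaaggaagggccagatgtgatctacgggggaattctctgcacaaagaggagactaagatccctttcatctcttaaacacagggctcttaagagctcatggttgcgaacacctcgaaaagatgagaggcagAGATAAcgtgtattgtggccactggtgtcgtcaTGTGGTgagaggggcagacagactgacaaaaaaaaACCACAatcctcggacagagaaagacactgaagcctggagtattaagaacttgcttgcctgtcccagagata

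Counts summed to between 10282987 and 32797872 per library over all regions, and the member regions held 377 to 17059 reads each over the 10 libraries, with no library under 9 reads at any of them. Values are given as CPM, the read count scaled to a common library size by TMM, edgeR's normalisation. Replicates agreed least in SI, where Pearson's r of log2 CPM over the member regions was 0.871 against 0.946 to 0.963 in the other 4 tissues. Of 9 ILC2 markers, 8 had a region at their promoter (*Thy1* had none), summing to 229 to 327 CPM per library. The promoter regions of *Klrg1* were lower in BM (8.14 CPM against 29.5 to 54.2 in the means of the other tissues) and those of *Il1rl1*, which encodes ST2, were at 2.94 CPM in SI and 6.53 in LI against 17.8 to 21.1 elsewhere. No promoter region was found for the markers fixed for B cells, myeloid cells, mast cells and basophils, NK cells and ILC1s, ILC3s, endothelium, acinar cells or megakaryocytes. T cells had 2 of 5 markers (summed, 4.74 to 4.89 CPM in BM and 4.71 to 10.0 elsewhere), and epithelium and fibroblasts had 1 of 3 each. Both erythroid markers had promoter regions, summing to 10.1 to 20.6 CPM in BM and 4.19 to 9.39 elsewhere, and the part of such cells in the BM values below was not tested.

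The first question was where the chromatin of these genes differed among the 5 tissues. By edgeR's quasi-likelihood F test with Benjamini-Hochberg adjustment over all 49981 regions with a read, 39 of the 84 regions differed (46.4%), beside 44.2% of all regions. The share was close to the background. By position, 22 of 46 intergenic, 15 of 29 intragenic and 2 of 9 promoter-class member regions differed, where 48.1%, 46.8% and 30.9% of all regions of those classes did. By gene, 15 of 28 regions differed at *Itga4*, 7 of 16 at *S1pr1*, 5 of 8 at *Itgae*, 3 of 4 at *Itgb7*, 3 of 6 at *Itgb2*, 3 of 7 at *Itga1*, 2 of 6 at *Cd69*, 1 of 4 at *Itgb1* and 0 of 5 at *Itgal*. At *Itgal* 1 region had an unadjusted p under 0.05 and DESeq2 called 0. Of the 39, 18 kept their call when any 1 library was left out and in every other fit tried. In bulk chromatin of this kind, fewer cells with an open region and less opening per cell cannot be told apart.

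At the start sites, 1 of 7 promoter regions differed among tissues. A region lay within 1000 bp upstream to 100 bp downstream of the start site of 7 of the 9 genes. The *Itga4* promoter (chr2:79255069-79255840, exon 1) was the most open of them, with 66.9 and 53.1 CPM (BM), 40.1 and 56.8 (LI), 42.4 and 51.9 (lung), 41.8 and 45.0 (pancreas) and 61.5 and 49.4 (SI), and did not pass the F test (adjusted p = 0.312). The *Cd69* promoter (chr6:129275140-129275912) held 34.3 and 37.0 CPM (BM), 40.2 and 55.3 (LI), 44.9 and 52.9 (lung), 51.5 and 39.8 (pancreas) and 44.4 and 35.9 (SI) (adjusted p = 0.291). The *S1pr1* promoter (chr3:115714932-115715506) stood at 10.3 and 10.5 CPM (BM), 14.6 and 17.7 (LI), 14.9 and 13.6 (lung), 12.7 and 8.74 (pancreas) and 21.6 and 10.6 (SI) (adjusted p = 0.209). No tissue stood apart from all others at any of these 3, and the SI replicates of *S1pr1* differed by more than any pair of tissue means did.

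The promoters of *Itgb7* (chr15:102231697-102232211), *Itgal* (chr7:127295943-127296605) and *Itgb2* (chr10:77530129-77530687) also missed the threshold, with adjusted p of 0.711, 0.174 and 0.766. Their tissue means were 8.88 to 11.2 CPM, 8.85 to 14.3 and 15.3 to 19.6. The *Itga1* promoter (chr13:115101490-115102244, exon 1) alone passed, at a low level and an adjusted p of 0.0321, with 3.08 and 3.73 CPM (BM), 8.19 and 3.95 (LI), 2.43 and 1.99 (lung), 4.36 and 3.77 (pancreas) and 8.91 and 3.97 (SI). Lung was lowest there, below the other 8 libraries, while 1 replicate each of LI and SI was at 3.95 and 3.97 CPM and the other at 8.19 and 8.91. The call was lost without either BM library (adjusted p of 0.0708 without BM 1 and 0.0585 without BM 2), either lung library (0.0790 and 0.140) or either pancreas library (0.0528 and 0.0553). The region at the *Itgb1* start (chr8:128685598-128686285) was centred in exon 1, outside the promoter window, with 32.2 and 17.8 CPM (BM), 20.3 and 20.2 (LI), 17.3 and 20.3 (lung), 17.3 and 14.6 (pancreas) and 29.9 and 14.5 (SI) (adjusted p = 0.430). No region of the table lay at the *Itgae* start site.

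**Figure D1:**
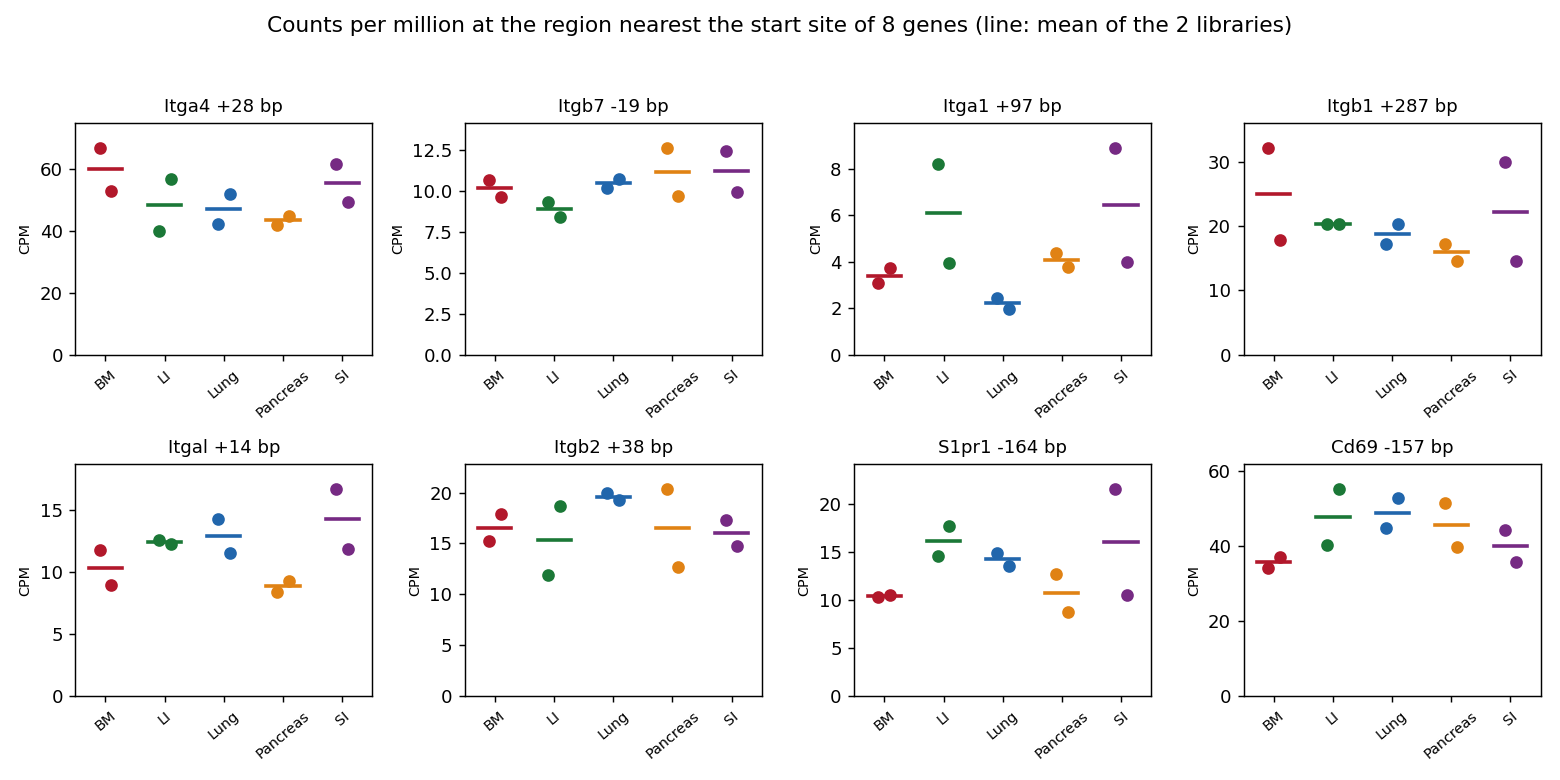
CPM (vertical axis, from 0) in each of the 10 libraries, by tissue, at the region nearest the start site of 8 genes, with a line at the mean of the 2 libraries. Both lung libraries (2.43 and 1.99 CPM) lie below the rest at Itga1 +97 bp, and both LI libraries (9.33 and 8.43 CPM) do by little at Itgb7 -19 bp.

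Marrow, from which ILC2s are released, was then set against the mean of the 4 tissues in which they reside. Of the 84 regions, 16 were lower in BM and 12 were higher (edgeR, adjusted p under 0.05), which is 19.0% and 14.3% beside 17% and 14.9% of all regions. The median log2 difference of the 84 was -0.10, and that of all regions was 0.00. The 16 lower regions were 6 at *S1pr1*, 4 at *Itgae*, 2 at *Itga4* and 1 each at *Itgb7*, *Itgb1*, *Itgb2* and *Cd69*. The 12 higher regions were 6 at *Itga4*, 2 each at *Itgb7* and *Itga1* and 1 each at *Itgae* and *S1pr1*. Without BM 1, 8 of the 16 and 1 of the 12 remained (7.87% and 4.51% of all regions were then called). Without BM 2, 8 of the 16 and 7 of the 12 did (9.46% and 9.05% of all). The lower regions that kept their call whichever library was left out numbered 6: *S1pr1* -74.3, -43.6 and +41.1 kb, *Itgae* -6.1 and +40.6 kb and *Itgb7* +923 bp. Among the higher ones only *Itga1* -160.4 kb did. With library totals in place of TMM, 7 were higher and 16 lower, and 9.49% and 19.0% of all regions then were. With trends with GC content and width removed, 15 were higher and 13 lower (12.5% and 16.6% of all regions). The median log2 difference was then -0.035 for the 84 and -0.032 for all regions. That fit lost the lower calls at *S1pr1* -86.0 and -14.4 kb, *Itga4* +11.9 kb and *Itgb2* +6.8 kb. It also lost the higher calls at *Itgae* +47.8 kb and *Itgb7* +7.2 kb.

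At *S1pr1*, BM had the lowest mean in 8 of 16 regions (50.0%, beside 26.5% of all regions), and 12 of 16 had a negative log2 difference (75.0%, beside 49.9%), with a median of -0.43. BM was lowest equally often at *Itgae*, in 4 of 8, and at *Itgb2*, in 3 of 6, and the difference was negative in 7 of 8 at *Itgae* and 4 of 5 at *Itgal*. *S1pr1* -74.3 kb (chr3:115789068-115789605, intergenic, upstream) varied most, with 1.42 and 2.95 CPM (BM), 4.10 and 6.56 (LI), 13.1 and 12.6 (lung), 11.0 and 12.3 (pancreas) and 5.06 and 3.41 (SI). Lung and pancreas were high, BM was low, and both intestines lay between, with no overlap of BM or of lung with any other tissue. The difference over tissues had an adjusted p of 0.000116, and BM was lower than the other 4 by -1.80 ± 0.31 on the log2 scale (SE, adjusted p = 0.000402). Lung and pancreas did not differ beyond their spread (lung minus pancreas 0.14 ± 0.32, adjusted p = 0.848), and lung exceeded SI by 1.61 ± 0.33 (adjusted p = 0.00246). Of the bases shown for this region, 41.7% are marked as repeat in the reference.

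*S1pr1* -43.6 kb (chr3:115758349-115758918, upstream) set BM apart from everything else, with 7.29 and 7.36 CPM (BM), 15.8 and 17.7 (LI), 15.2 and 13.8 (lung), 13.5 and 16.9 (pancreas) and 19.0 and 15.2 (SI). Both BM libraries lay below the other 8, which ranged from 13.5 to 19.0 CPM, and BM was lower by -1.11 ± 0.20 (adjusted p = 0.000544). *S1pr1* +41.1 kb (chr3:115673666-115674297, downstream of the gene) gave 3.33 and 2.71 CPM (BM), 6.54 and 10.5 (LI), 11.6 and 6.85 (lung), 9.13 and 10.9 (pancreas) and 8.14 and 5.33 (SI). The BM libraries were again the lowest, by -1.50 ± 0.30 (adjusted p = 0.00126), while the other tissues overlapped one another. The F test (adjusted p = 0.00590) rested on BM 2 (0.0785 without it), and the BM difference did not. With predicted transcripts counted, the nearest start site to this region is that of a predicted gene, *Gm40124*, as it is for the 4 regions farther downstream.

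*S1pr1* -84.5 kb (chr3:115799243-115799767) held 2.99 and 3.22 CPM (BM), 6.89 and 8.34 (LI), 5.65 and 5.22 (lung), 4.36 and 5.93 (pancreas) and 6.21 and 6.30 (SI), lowest in BM by -0.96 ± 0.24 (adjusted p = 0.00741) and highest in LI. Its BM call was lost without BM 1 (adjusted p = 0.0891) and without BM 2 (0.0511). *S1pr1* -14.4 kb (chr3:115729150-115729705), the most open region of the locus, had another order, with 14.4 and 23.1 CPM (BM), 31.0 and 36.4 (LI), 25.1 and 23.6 (lung), 34.9 and 37.4 (pancreas) and 15.7 and 18.2 (SI) (F test adjusted p = 0.00236). LI and pancreas were high here and SI was as low as BM. Its difference of BM from the rest, -0.51 ± 0.19 (adjusted p = 0.0466), lost its call when any 1 of 7 libraries was left out, BM 1 most of all (adjusted p = 0.551). *S1pr1* -86.0 kb completed the 6 lower regions (-0.90 ± 0.23, adjusted p = 0.00662, and 0.130 without BM 2). The 1 region higher in BM was *S1pr1* +72.7 kb, at 21.1 and 16.2 CPM (BM), 12.1 and 13.3 (LI), 10.9 and 10.6 (lung), 14.6 and 14.6 (pancreas) and 13.1 and 11.4 (SI) and a difference of 0.58 ± 0.17 (adjusted p = 0.0179, and 0.299 without BM 1). The other 9 regions of the locus, the promoter among them, did not pass this test. Of these, *S1pr1* +25.4 kb differed among tissues (F test adjusted p = 0.0131), with 4.60 and 6.07 CPM (BM), 8.80 and 5.78 (LI), 4.78 and 3.89 (lung), 7.71 and 7.01 (pancreas) and 3.18 and 2.75 (SI), lowest in SI.

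*Cd69*, whose product opposes S1PR1 at the cell surface, had 2 of 6 regions that differed (33.3%, beside 44.2% of all regions). Its most open region was not the promoter but *Cd69* -9.3 kb (chr6:129284419-129284965, upstream), with 63.7 to 93.9 CPM in the 10 libraries and an F test adjusted p of 0.342. *Cd69* +8.7 kb (chr6:129266279-129267146), just beyond the 3' end of the gene, differed most, with 5.19 and 6.26 CPM (BM), 29.6 and 31.8 (LI), 12.5 and 17.3 (lung), 11.7 and 8.41 (pancreas) and 19.7 and 6.20 (SI) (adjusted p = 0.00107). Both LI libraries lay above the other 8, BM had the lowest mean, and the SI replicates were 19.7 and 6.20 CPM, so that one sat beside lung and the other beside BM. LI exceeded BM by 2.42 ± 0.39 on the log2 scale (adjusted p = 0.00032) and SI by 1.25 ± 0.37 (adjusted p = 0.0473). BM was below the mean of the rest by -1.45 ± 0.33 (adjusted p = 0.00372, and 0.0807 without BM 1).

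*Cd69* +1.5 kb in intron 1 (chr6:129273568-129274112) stood at 23.5 and 24.2 CPM (BM), 31.9 and 40.4 (LI), 20.4 and 24.0 (lung), 25.3 and 22.9 (pancreas) and 38.5 and 26.8 (SI). Both intestines had the higher means, and the F test adjusted p of 0.0382 rose above 0.05 when any 1 of 7 libraries was left out (0.197 without LI 2). *Cd69* +14.2 and +15.1 kb, at 5.82 to 10.2 CPM and 2.63 to 4.89 CPM, did not pass (adjusted p of 0.200 and 0.849).

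*Itgae* had its differences inside the gene and upstream of it, and 4 of the 5 regions that passed the F test had lung or SI highest and BM or pancreas lowest. The exception was *Itgae* +47.8 kb, with BM highest and LI lowest. Among all regions that passed, lung was highest in 13.6% and SI in 23.0%, and BM was lowest in 34.3% and pancreas in 11.7%. The share that met both conditions at once is not given here, so the 4 of 5 cannot be set against it. *Itgae* +4.2 kb in intron 1 (chr11:73094527-73095031) gave 1.47 and 1.52 CPM (BM), 3.05 and 3.08 (LI), 4.16 and 5.58 (lung), 0.766 and 1.29 (pancreas) and 4.96 and 4.77 (SI) (F test adjusted p = 0.000639). Pancreas lay below the other 8 libraries, BM came next, and lung and SI were level (lung minus SI 0.00 ± 0.35, adjusted p = 0.996). SI exceeded pancreas by 2.29 ± 0.42 (adjusted p = 0.00111), and BM did not differ from pancreas beyond its error (BM minus pancreas 0.59 ± 0.44, adjusted p = 0.350). Against the mean of the rest BM was lower by -0.96 ± 0.32 (adjusted p = 0.0325), a call lost without BM 1 (0.177), BM 2 (0.141), lung 2 (0.0639) or pancreas 2 (0.0524).

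*Itgae* -6.1 kb (chr11:73084180-73084762, intergenic) was the lowest of these in BM, with 0.979 and 0.598 CPM (BM), 1.66 and 2.61 (LI), 4.04 and 6.60 (lung), 1.71 and 2.37 (pancreas) and 3.80 and 3.52 (SI). BM lay below and lung above all other libraries, the ratio of the highest to the lowest tissue mean was 6.74, and BM fell short of the rest by -1.94 ± 0.40 (adjusted p = 0.00172). *Itgae* +40.6 kb in intron 22 (chr11:73130934-73131490) held 4.60 and 4.46 CPM (BM), 11.3 and 11.0 (LI), 8.27 and 8.31 (lung), 4.77 and 7.01 (pancreas) and 11.0 and 13.2 (SI), lowest in BM by -0.99 ± 0.22 (adjusted p = 0.00336), with LI and SI at the top. *Itgae* +5.1 kb, the neighbour of the intron 1 region, was lower in BM by -0.95 ± 0.29 (adjusted p = 0.0191, 0.121 without BM 1 and 0.133 without BM 2).

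The 3 regions from +46.2 to +47.8 kb lay at another gene, whose start site is also the nearest to *Itgae* +40.6 kb. *Itgae* +47.8 kb (chr11:73138093-73138612) is the promoter region of *Haspin*, a histone kinase gene within an *Itgae* intron, and held 27.7 and 23.7 CPM (BM), 14.7 and 16.2 (LI), 19.8 and 24.1 (lung), 16.3 and 18.0 (pancreas) and 23.1 and 21.8 (SI). It was higher in BM by 0.43 ± 0.16 (adjusted p = 0.0473), a call lost when any 1 of 8 libraries was left out, without BM 1 at 0.353. *Itgae* +47.1 kb (chr11:73137460-73137968) was higher in SI than in each other tissue at an unadjusted p under 0.05 through 15.5 CPM in SI 1, with 7.91 in SI 2 and 4.43 to 7.83 elsewhere.

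**Figure D2:**
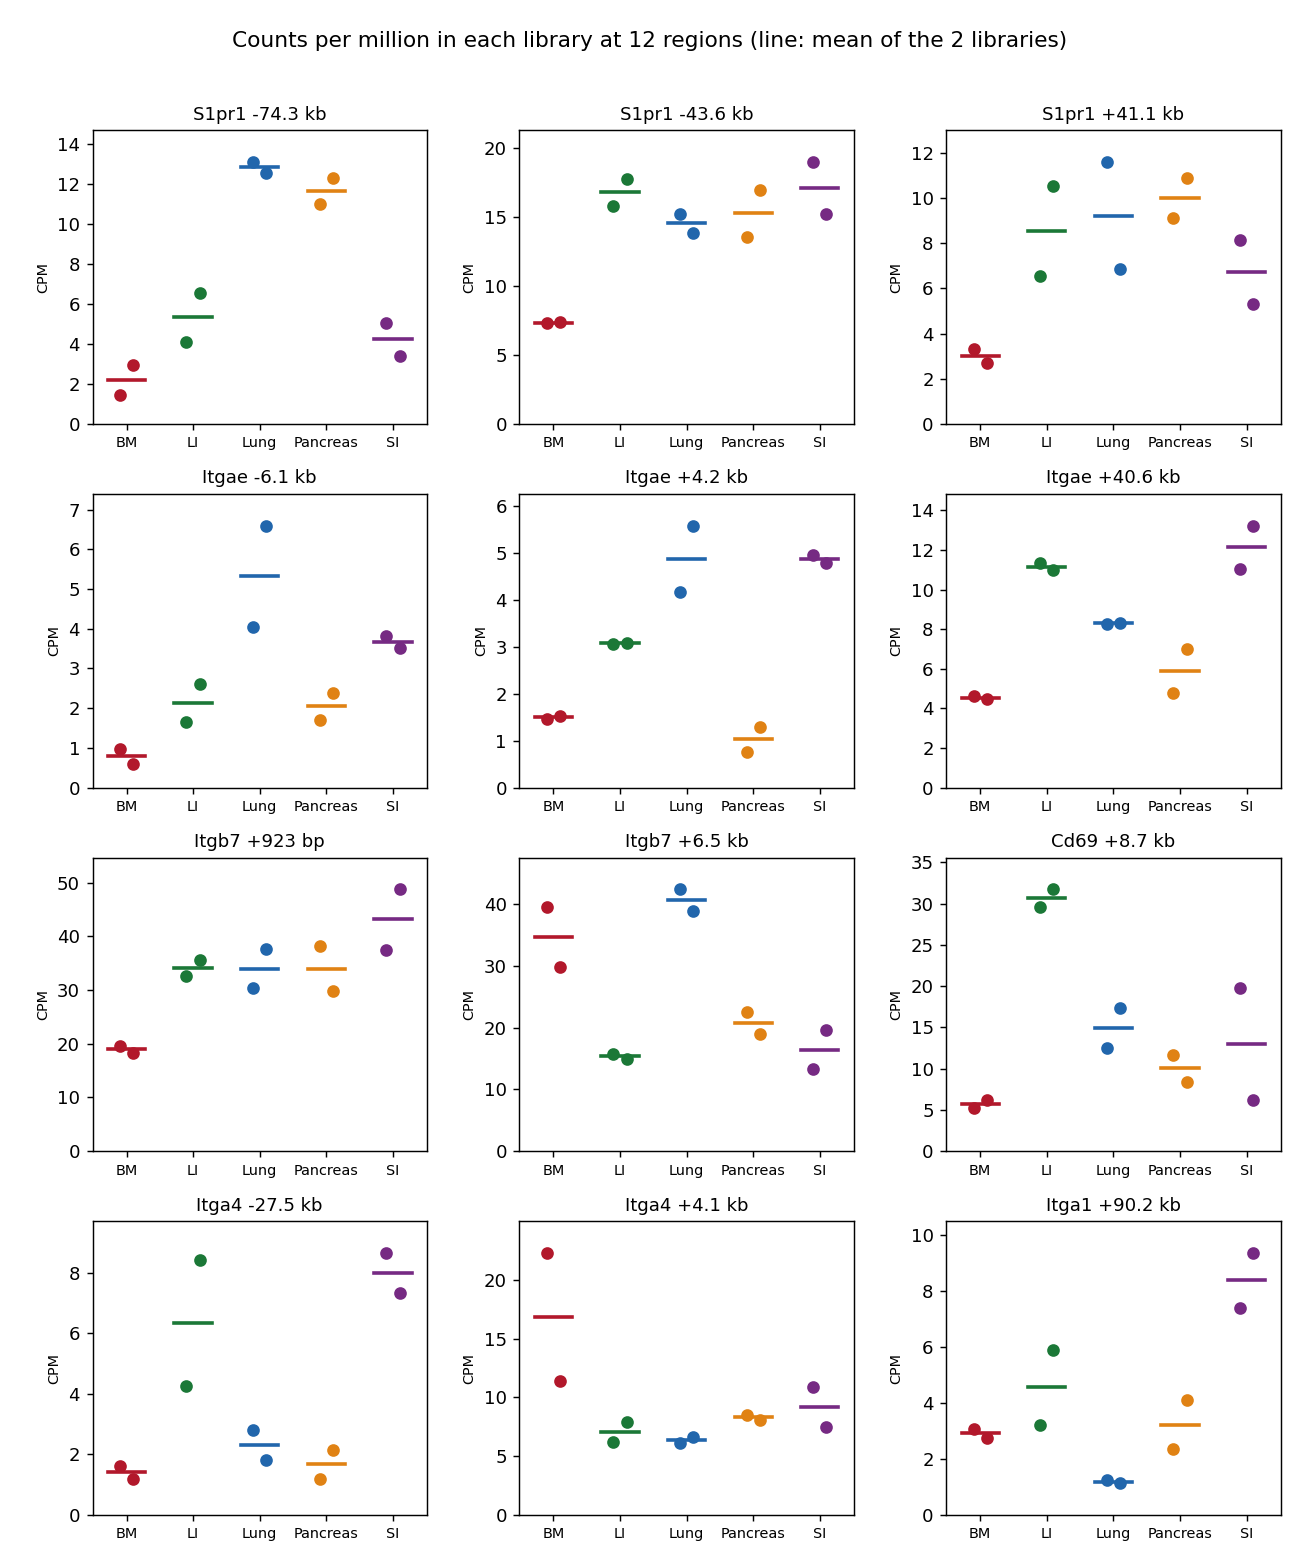
CPM (vertical axis, from 0) in each library by tissue at 12 regions, with a line at the mean of the 2 libraries. BM lies below every other library at S1pr1 -74.3, -43.6 and +41.1 kb, Itgae -6.1 and +40.6 kb and Itgb7 +923 bp, and both LI libraries (29.6 and 31.8 CPM) lie above the rest at Cd69 +8.7 kb.

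*Itgb7*, the β chain shared by α4 and αE, showed opposite patterns a few kilobases apart. *Itgb7* +923 bp in intron 1 (chr15:102230720-102231304) gave 19.6 and 18.4 CPM (BM), 32.7 and 35.7 (LI), 30.4 and 37.6 (lung), 38.2 and 29.8 (pancreas) and 37.5 and 48.8 (SI). BM lay below the other 8 libraries, by -0.93 ± 0.18 (adjusted p = 0.000917), while the other tissues overlapped, with means of 34.0 to 34.2 CPM in LI, lung and pancreas and 43.1 in SI (SI minus lung 0.34 ± 0.21, adjusted p = 0.278). *Itgb7* +6.5 kb in intron 2 (chr15:102225136-102225664) gave 39.5 and 29.8 CPM (BM), 15.8 and 14.9 (LI), 42.5 and 38.9 (lung), 22.6 and 19.0 (pancreas) and 13.2 and 19.7 (SI) (F test adjusted p = 0.000232). Here BM and lung were high and both intestines and the pancreas low: lung exceeded SI by 1.30 ± 0.23 (adjusted p = 0.000736), and BM and lung did not differ beyond their error (BM minus lung -0.23 ± 0.22, adjusted p = 0.522). The difference of BM from the rest, 0.69 ± 0.17 (adjusted p = 0.00642), lost its call without BM 1 (0.188). *Itgb7* +7.2 kb over exon 3 (chr15:102224445-102224985) held 24.1 and 12.6 CPM (BM), 10.6 and 10.1 (LI), 11.6 and 13.6 (lung), 7.42 and 8.74 (pancreas) and 16.1 and 14.2 (SI), and its BM difference of 0.70 ± 0.21 (adjusted p = 0.0173) rested on BM 1 (0.702 without it).

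*Itga4* had the most regions, and they went in both directions. BM had the highest mean in 10 of 28 (35.7%, beside 28.9% of all regions) and lung the lowest in 14 (50.0%, beside 19.1%). Within 10 kb upstream and inside the gene all regions are also *Itga4*'s by predicted transcripts, whereas 18 regions from -180.4 to -19.3 kb lie closer to predicted genes (*Gm35748*, *Gm35813* and *Gm39866*). *Itga4* -27.5 kb (chr2:79227629-79228157), one of those 18, gave 1.61 and 1.20 CPM (BM), 4.27 and 8.43 (LI), 2.82 and 1.82 (lung), 1.18 and 2.16 (pancreas) and 8.67 and 7.35 (SI) (F test adjusted p = 0.000207). LI and SI were high and the other 3 tissues low, with no overlap between the 4 intestinal libraries and the other 6. Its BM difference of -1.40 ± 0.36 (adjusted p = 0.00811) was lost without BM 1 (0.0529) or BM 2 (0.106).

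Closer to the gene, *Itga4* -6.8 kb (chr2:79248403-79248903) was highest in lung and lowest in SI, with 4.31 and 4.23 CPM (BM), 4.01 and 2.74 (LI), 6.82 and 10.7 (lung), 4.06 and 6.36 (pancreas) and 2.21 and 2.51 (SI) (adjusted p = 0.00244). *Itga4* +4.1 kb in intron 2 (chr2:79259231-79259731) was high in BM through 1 library, with 22.3 and 11.4 CPM (BM), 6.19 and 7.91 (LI), 6.15 and 6.60 (lung), 8.54 and 8.09 (pancreas) and 10.9 and 7.49 (SI). Its F test adjusted p of 0.00708 became 0.219 without BM 1, and its BM difference of 1.13 ± 0.23 became 0.57. *Itga4* +11.9 kb, also in intron 2, went the other way, lower in BM by -0.95 ± 0.27 (adjusted p = 0.0123, and 0.223 without BM 2).

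Farther upstream, *Itga4* -135.8 kb (chr2:79119284-79119870) was highest in BM and lowest in SI, with 17.4 and 14.6 CPM (BM), 12.1 and 8.99 (LI), 8.94 and 11.0 (lung), 9.72 and 10.8 (pancreas) and 3.51 and 5.92 (SI) (F test adjusted p = 0.00218). BM exceeded the rest by 0.92 ± 0.21 (adjusted p = 0.00315, and 0.0819 without BM 1). *Itga4* -132.7 kb (chr2:79122438-79122957), 3 kb away, was lowest in lung and highest in LI, with 7.24 and 9.02 CPM (BM), 15.1 and 11.1 (LI), 4.31 and 5.41 (lung), 10.1 and 11.5 (pancreas) and 5.34 and 10.8 (SI) (adjusted p = 0.0165). *Itga4* -117.4 kb (chr2:79137754-79138254) was high in SI 1 alone, at 11.8 CPM against 0.662 to 3.40 in the other 9 libraries. *Itga4* -75.4 kb (chr2:79179772-79180359) was high in lung, with 10.6 and 4.37 CPM (BM), 2.44 and 1.91 (LI), 9.68 and 21.3 (lung), 3.12 and 3.77 (pancreas) and 4.09 and 2.82 (SI) (adjusted p = 0.000236), and its BM and lung libraries overlapped. All of its central 300 bases are marked as repeat in the reference, the only member region for which this holds. The 4 other regions higher in BM at this locus (-180.4, -176.1, -134.3 and +15.0 kb) had log2 differences of 0.59 to 1.21, and none kept its call without BM 1. Among the *Itga4* regions that differed by the F test and are not yet described, *Itga4* -5.6 kb kept its call whichever library was left out, with 8.12 and 7.22 CPM (BM), 5.75 and 6.26 (LI), 7.64 and 11.0 (lung), 9.25 and 9.60 (pancreas) and 4.19 and 3.94 (SI) (adjusted p = 0.00881) and SI lowest, as at -6.8 kb beside it. *Itga4* -155.7, -143.4, -82.1 and +11.3 kb passed with adjusted p of 0.0148, 0.0353, 0.0308 and 0.0278 and each lost its call in the fits without 2, 6, 5 and 4 of the libraries in turn.

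*Itga1* and *Itgb1*, the chains of the collagen receptor, had 3 of 7 and 1 of 4 regions that differed, beside 44.2% of all regions. *Itga1* +90.2 kb in intron 8 (chr13:115011453-115011982) gave 3.08 and 2.76 CPM (BM), 3.23 and 5.91 (LI), 1.25 and 1.13 (lung), 2.36 and 4.10 (pancreas) and 7.41 and 9.37 (SI) (F test adjusted p = 0.000315). SI lay above and lung below all other libraries, and SI exceeded lung by 2.81 ± 0.39 (adjusted p = 0.000104). The region lay inside *Itga1*, with its nearest start site at *Pelo*. *Itga1* -160.4 kb (chr13:115262115-115262615, intergenic) was highest in BM, with 7.24 and 5.89 CPM (BM), 2.18 and 2.65 (LI), 2.39 and 1.57 (lung), 1.59 and 3.13 (pancreas) and 2.12 and 2.37 (SI), by 1.56 ± 0.29 (adjusted p = 0.000739). The F test there had an adjusted p of 0.00533, and 0.107 without BM 1. With predicted transcripts counted, the nearest start site to this region and to the next is that of *Gm25985*. *Itga1* -158.6 kb, its neighbour, was higher in BM by 0.84 ± 0.29 (adjusted p = 0.0340), a call lost without BM 1 (0.225), BM 2 (0.127), lung 2 (0.0623) or pancreas 1 (0.0714). *Itga1* +11.6 kb (chr13:115090068-115090658) is the promoter region of *Pelo*, a ribosome rescue gene inside *Itga1* intron 1, and was level over the tissues, with means of 33.6 to 40.7 CPM (adjusted p = 0.546).

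At *Itgb1* the region that differed was the most distant, *Itgb1* -135.7 kb (chr8:128549659-128550159), with 0.587 and 0.460 CPM (BM), 1.39 and 3.61 (LI), 5.68 and 4.22 (lung), 1.47 and 3.56 (pancreas) and 0.626 and 0.314 (SI) (adjusted p = 0.000512). Lung lay above all other libraries, and BM and SI had means of 0.524 and 0.470 CPM. Against the rest BM was lower by -1.88 ± 0.53 (adjusted p = 0.0123), a call lost without BM 1 (0.0880) or BM 2 (0.117), and the nearest start site by predicted transcripts is that of *Gm32643*. *Itgb1* +23.8 kb in intron 3 did not pass (adjusted p = 0.243).

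*Itgal* and *Itgb2*, the chains of LFA-1, were open in every tissue. At *Itgal*, the most varied region was *Itgal* -6.8 kb (chr7:127289251-127289752), with tissue means from 3.81 CPM in pancreas to 8.63 in lung (adjusted p = 0.0715). *Itgal* +1.1 and -10.9 kb had adjusted p of 0.101 and 0.116. By predicted transcripts, the nearest start site to the 3 upstream regions is that of *Gm31897*. At *Itgb2*, *Itgb2* +34.1 kb in intron 14 (chr10:77564221-77564721) was highest in lung, with 0.979 and 0.644 CPM (BM), 0.872 and 0.912 (LI), 2.86 and 3.78 (lung), 1.53 and 2.59 (pancreas) and 0.963 and 1.11 (SI) (adjusted p = 0.00731, and 0.0667 without lung 2). Its nearest start site is that of *Pttg1ip*. *Itgb2* +7.7 kb in intron 1 (chr10:77537765-77538275) also had lung above all other libraries, with 6.66 and 7.68 CPM (BM), 3.84 and 5.21 (LI), 8.11 and 11.7 (lung), 8.07 and 5.61 (pancreas) and 4.24 and 5.36 (SI) (adjusted p = 0.0268, and 0.189 without lung 2). *Itgb2* +6.8 kb, next to it, was lower in BM by -0.58 ± 0.18 (adjusted p = 0.0246), a call lost without BM 1 (0.101), BM 2 (0.182) or lung 2 (0.0549).

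**Figure D3:**
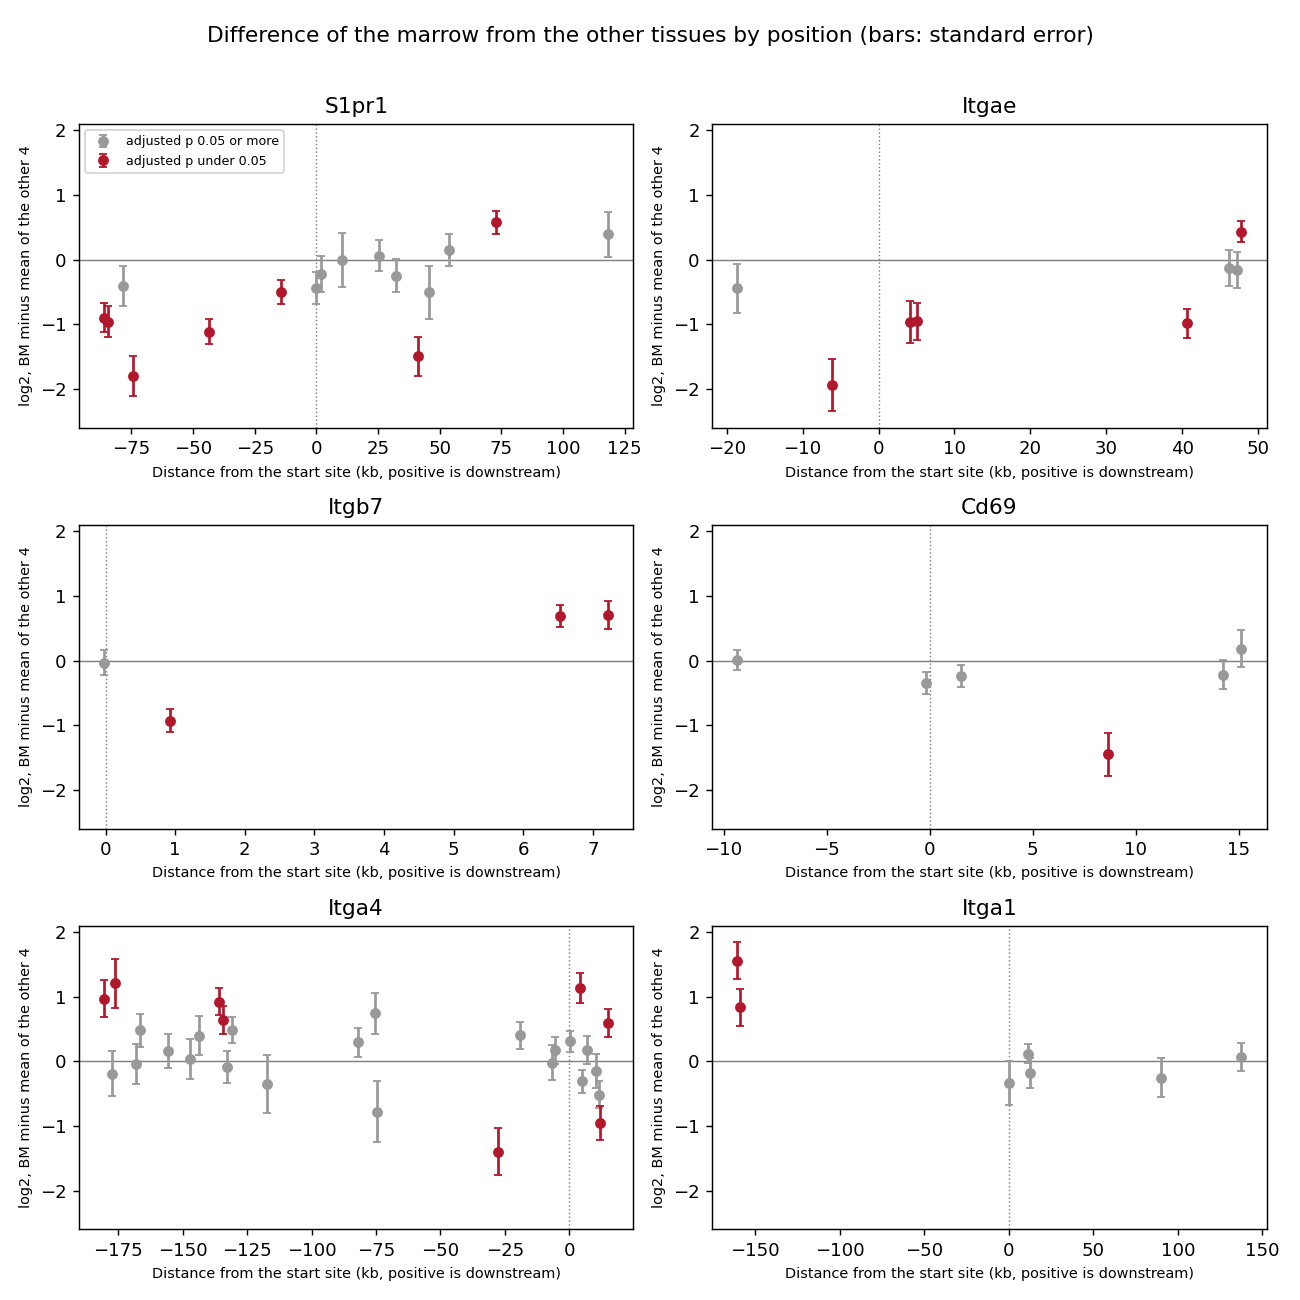
Log2 difference of BM from the mean of the other 4 tissues (vertical axis, point and standard error) against the distance of the region from the start site in kb (horizontal axis, positive is downstream), for 6 genes, with red marking an adjusted p under 0.05. S1pr1 has 6 red points below 0 and 1 above, Itgae 4 below and 1 above, and Itga4 2 below and 6 above.

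The study defined a tissue-specific open chromatin region (TS OCR) as a region higher in 1 tissue than in each of the other 4 at an unadjusted p under 0.05, and a commonly decreased peak as the reverse. By edgeR, 9 of the 84 regions were TS OCRs (10.7%, beside 11.3% of all regions) and 9 were commonly decreased (also 10.7%, beside 12.7%). The TS OCRs were 3 of BM (*Itga1* -160.4 kb, *Itga4* -135.8 kb, *Itga4* +4.1 kb), 1 of LI (*Cd69* +8.7 kb), 2 of lung (*Itga4* -75.4 and -6.8 kb) and 3 of SI (*Itga1* +90.2 kb, *Itga4* -117.4 kb, *Itgae* +47.1 kb). The decreased peaks were 6 of BM (4 at *S1pr1*: -84.5, -74.3, -43.6 and +41.1 kb; *Itgae* -6.1 kb; *Itgb7* +923 bp), 2 of lung (*Itga1* +90.2 kb, *Itga4* -132.7 kb) and 1 of SI (*Itga4* -135.8 kb). With adjusted p in each contrast, 2 and 4 remained. That rule is stricter for every region, and its share of all regions is not given here. With DESeq2 on the 4 libraries of each pair of tissues, 8 of the 9 TS OCRs and 5 of the 9 decreased peaks kept their call (10.7% and 8.06% of all regions were then called). The calls lost were *Itga4* -75.4 kb as a TS OCR (largest p 0.162) and, as decreased peaks, *S1pr1* -84.5 kb (0.107), *S1pr1* -74.3 kb (0.0854), *Itgae* -6.1 kb (0.0571) and *Itga4* -132.7 kb (0.0907). When 1 library was left out at a time, *Itga1* -160.4 kb alone stayed a TS OCR throughout, and *S1pr1* -43.6 and +41.1 kb, *Itgb7* +923 bp and *Itga4* -135.8 kb stayed decreased. Single libraries decided several of the rest: the largest of the 4 p-values was 0.0523 without LI 2 and 0.0955 without lung 1 at *Cd69* +8.7 kb, 0.405 without lung 2 at *Itga4* -75.4 kb, 0.204 without BM 1 at *S1pr1* -74.3 kb and 0.233 without LI 1 at *Itga1* +90.2 kb.

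Because α4β7 binds a gut addressin, both intestines were compared with BM, lung and pancreas. By the study's rule of 6 contrasts, 1 of 84 regions was higher in LI and SI, beside 2.18% of all regions: *Itga4* -27.5 kb, with the largest of its 6 p-values at 0.00178 (0.0844 without LI 2). None was lower in both, by edgeR or DESeq2 at the same unadjusted threshold, beside 0.874% of all. The regions next to it were *Itgae* +40.6 kb, higher in both intestines in all 6 contrasts with 5 of them at an unadjusted p under 0.05, and *Cd69* +1.5 kb, *Itga1* +90.2 kb and *Itga4* -117.4 kb, higher in all 6 with 4 past it in each. On the lower side *Itga4* -5.6 kb had 5 of 6 past it, and *Itgb7* +6.5 kb, *Itga4* -6.8, -75.4 and -135.8 kb and *S1pr1* -74.3 kb 4 each.

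**Figure D4:**
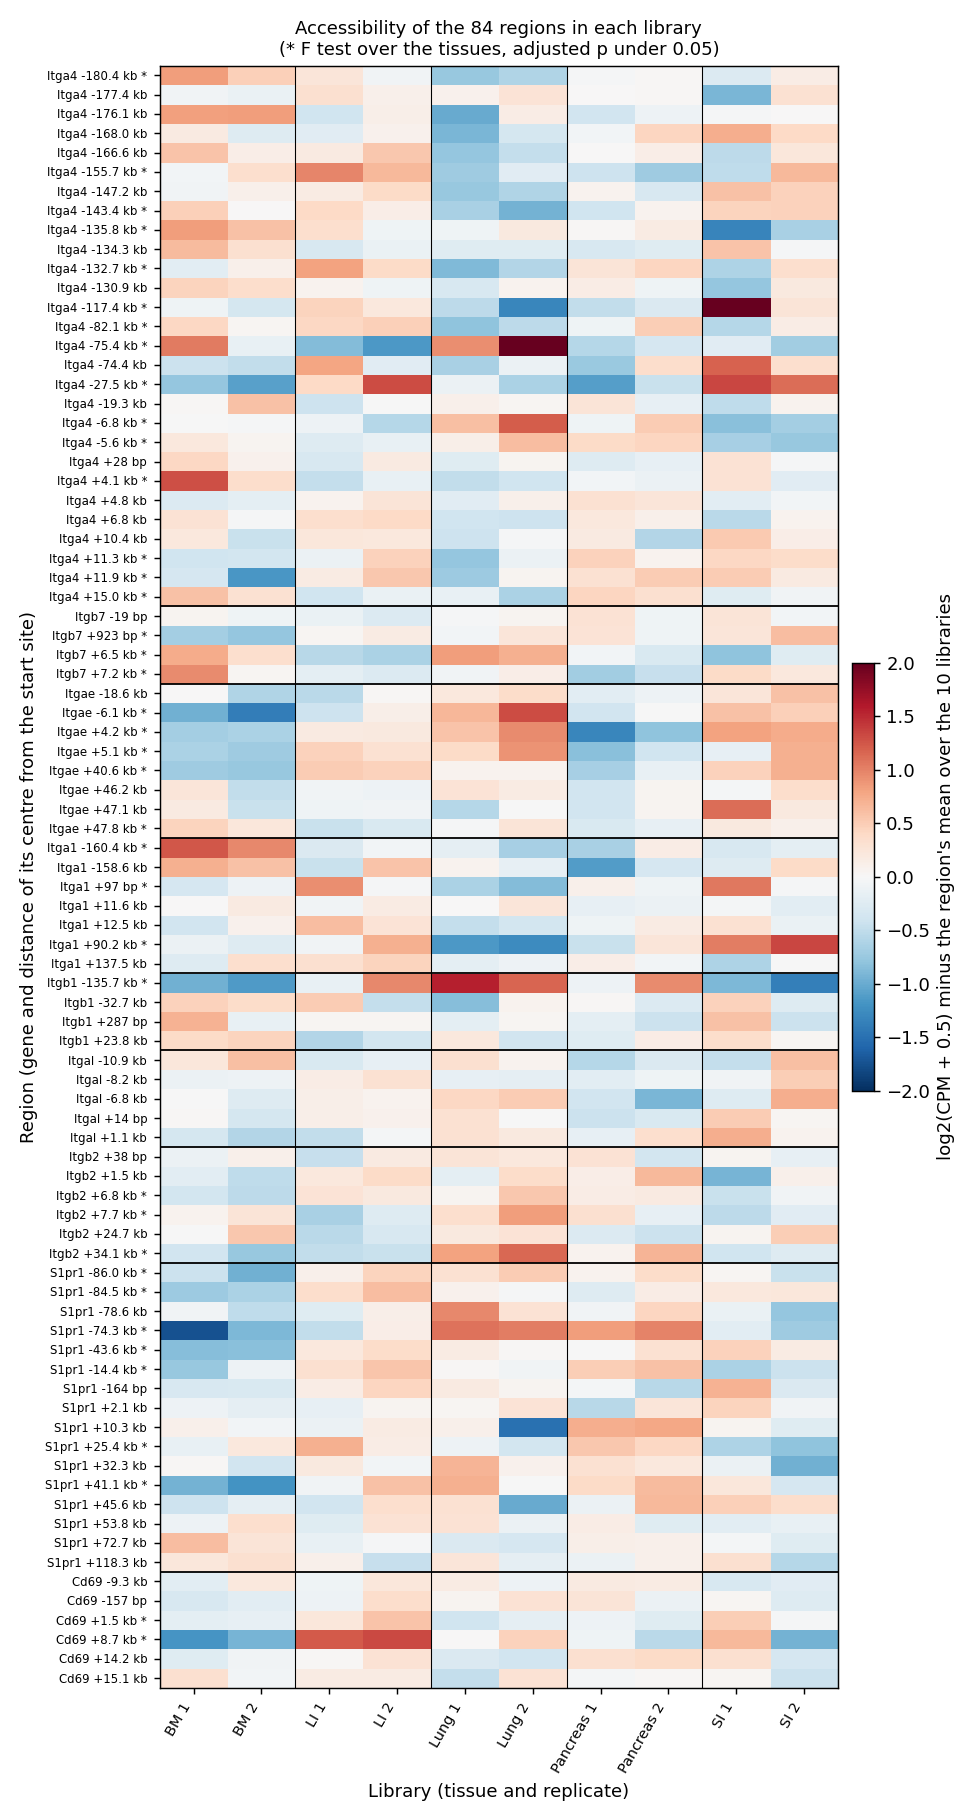
Each row is 1 of the 84 regions and each column 1 library, with colour giving log2(CPM + 0.5) minus the mean of that region over the 10 libraries (colours stop at 2 either way), ordered by gene and position, and * marking an F test adjusted p under 0.05. BM is blue at 6 regions of S1pr1 and 4 of Itgae that were lower there, while neighbouring rows of Itga4 differ in which tissue is red. At S1pr1 -14.4 kb the blue of BM 2 is faint (23.1 CPM, where the mean of the 10 libraries is 26.0).

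Reads summed over all regions of a gene gave 1 level per gene and library. *Itga4* summed highest, at 204 to 315 CPM over its 28 regions, then *Cd69* at 143 to 235 over 6 and *S1pr1* at 103 to 167 over 16, although sums grow with the number of regions and do not rank the genes. For *S1pr1* the sums were 103 and 106 CPM (BM), 141 and 165 (LI), 159 and 136 (lung), 153 and 167 (pancreas) and 137 and 105 (SI), with SI 2 as low as BM and every other library above them. For *Itgae* they were 52.9 and 42.2 CPM (BM), 50.0 and 52.1 (LI), 55.4 and 69.4 (lung), 36.2 and 45.9 (pancreas) and 69.7 and 69.1 (SI), in the order SI, lung, LI, BM and pancreas. For *Cd69* they were 143 and 171 CPM (BM), 189 and 235 (LI), 176 and 179 (lung), 193 and 175 (pancreas) and 180.1 and 146 (SI). An exact permutation test over all 945 arrangements of the libraries into pairs, which is without sides and can give no p below 0.00106, gave *Itgal* 0.0212, *Itgae* 0.0434, *Itga1* 0.0571, *S1pr1* 0.0857 and the other 5 genes 0.141 to 0.826. After adjustment over the 9 genes none passed (smallest adjusted p 0.171), while 2 had an unadjusted p under 0.05. Without SI 1, *Itgal* passed, with an adjusted p of 0.0381. Within a gene the regions moved together weakly: the median Pearson's r of log2 CPM between pairs of regions over the 10 libraries, which share depth and tissue, was 0.47 at *Itgae*, 0.31 at *Cd69*, 0.18 at *S1pr1*, 0.15 at *Itga4* and between -0.10 and 0.24 at the other 5 genes.

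The member regions shared some features that the rule did not use. Their median GC content was 45.3% against 49.8% of all regions, their median width 532 bp in both sets, and 9 (10.7%) were in promoter class against 19.2% of all. In central 300 bp windows, the GATA letters were in 29.8% of the member windows and 17.2% of all windows, RUNX in 41.7% of the member windows and 29.1% of all windows, IRF in 32.1% of the member windows and 25.7% of all windows, ROR in 17.9% of the member windows and 18.0% of all windows, AP-1 in 17.9% of the member windows and 18.3% of all windows, ETS in 11.9% of the member windows and 14.8% of all windows, AHR in 16.7% of the member windows and 29.6% of all windows and KLF in 13.1% of the member windows and 25.9% of all windows. Of the 16 member regions lower in BM, 11 held the RUNX letters and 2 the GATA letters, where 39.6% and 18.9% of all regions lower in BM did. AP-1 went the other way, in 3 of the 16 beside 38.3%. IRF was in 5 (beside 30.7%), ROR in 4 (25.8%) and KLF, AHR and ETS in 2 each (23.8%, 21.5% and 18.7%). The RUNX windows included all 4 lower regions of *Itgae*, and *S1pr1* -86.0, -74.3, -43.6 and +41.1 kb. Regions of the same gene may not be independent. Of the 12 member regions higher in BM, 3 held RUNX and 6 GATA, where 23.5% and 22.8% of all regions higher in BM did. AHR and IRF were in 3 each (beside 37.6% and 20.3%), ROR and ETS in 2 each (14.2% and 11.97%). KLF and AP-1 were in 1 each (30.1% and 8.58%). Among the sequences shown, *S1pr1* +41.1 kb has 3 RUNX matches, starting at bases 29, 155 and 266 of the window, *Itgb7* +923 bp has 2, at 62 and 277, and *Itgb7* +6.5 kb has 2 GATA matches, at 146 and 278, and none to RUNX. *Itga1* +90.2 kb, called neither lower nor higher in BM, has 2 RUNX matches, at 194 and 229, and 1 GATA match, at 161. A match is a description of the letters and not of a bound factor.

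Other genes of these pathways were read by the same rule, and their counts stand beside 44.2% of all regions that differed, 17% lower in BM and 14.9% higher. Of 83 regions at 19 further integrin subunits (1 of them also a member region), 42 differed among tissues (50.6%), 16 were lower and 8 higher in BM, and the median log2 difference was -0.10. The 3 that differed most were in *Itga2*, another collagen-binding α chain (chr13:114848885-114849385, 0.881 and 0.966 CPM (BM), 2.88 and 3.74 (LI), 0.980 and 0.635 (lung), 2.00 and 2.05 (pancreas) and 6.40 and 8.64 (SI), adjusted p = 3.22e-05), upstream of *Itga11*, also a collagen-binding chain (chr9:62639901-62640729, 1.81 and 1.52 CPM (BM), 9.50 and 8.78 (LI), 3.92 and 5.30 (lung), 8.66 and 10.0 (pancreas) and 5.87 and 8.46 (SI), adjusted p = 0.000108), and in *Itgb3*, the β chain of the vitronectin receptor (chr11:104660976-104662029, 43.7 and 30.2 CPM (BM), 9.24 and 12.1 (LI), 19.8 and 14.3 (lung), 17.4 and 19.4 (pancreas) and 10.8 and 12.5 (SI), adjusted p = 0.000125). SI was highest at *Itga2*, BM lowest at *Itga11* and BM highest at *Itgb3*, with no overlap in each case. The nearest start site to the *Itga2* region is that of *Mocs2*.

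Genes of integrin activation and its regulation, 12 in all with 122 regions, had 52 that differed (42.6%), 33 lower and 8 higher in BM, and a median of -0.23. The leading regions lay in *Cytip*, which regulates cytohesin-1 (chr2:58129726-58130355, BM log2 difference -1.87, F test adjusted p = 1.68e-05), in *Rapgef1*, an exchange factor for RAP1 (chr2:29624745-29625260, -2.42, adjusted p = 2.60e-05), and upstream of *Apbb1ip*, which encodes the RAP1 effector RIAM (chr2:22755560-22756060, 3.90, adjusted p = 5.20e-05). At *Apbb1ip* the BM libraries had 9.05 and 5.84 CPM and the other 8 had 0.0869 to 1.51.

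For sphingosine-1-phosphate and egress, 16 genes had 75 regions, of which 30 differed (40.0%), 12 were lower and 14 higher in BM, with a median of 0.03. Among the leading regions was 1 in *Foxo1*, a transcription factor that drives *Klf2*. It (chr3:52269928-52271028) was low in BM (12.6 CPM against 32.8 to 50.0 in the means of the other tissues, adjusted p = 5.45e-05).

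For genes associated with tissue residency, 12 of 13 had regions (*Zfp683*, which encodes HOBIT, had none). Of the 132, 76 differed (57.6%), 40 were lower and 10 higher in BM, and the median was -0.26. The leading regions lay upstream of and in *Cd44*, the hyaluronan receptor (chr2:102956854-102957389, BM log2 difference -2.31, F test adjusted p = 5.64e-06, and chr2:102894931-102895467, -1.94, adjusted p = 1.22e-05), and at *Cd101*, an inhibitory surface receptor (chr3:101054292-101054812, -2.04, adjusted p = 1.21e-05). BM had the lowest mean at all 3 regions, at 1.46 to 3.02 CPM. At *Cd101* the BM libraries (0.979 and 1.93 CPM) overlapped those of SI (2.21 and 1.85 CPM).

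Finally, regions of other genes with the most similar profile over the 10 libraries were listed, by Pearson's r of log2 CPM, as a description. For *S1pr1* -74.3 kb they were near *Gm33667* (r = 0.988), in *Dnajb13* (0.976) and near *Gm11917* (0.974), and 206 regions in all exceeded 0.9. For *Cd69* +8.7 kb they were near *Hdnr*, in *Zfp423* and in *Igsf9* (0.953 to 0.954, 26 regions over 0.9), and for *Itgae* +4.2 kb in *Sncaip* (0.966), near *Litaf* (0.958) and near *Hnrnpk* (0.951), with 49 over 0.9.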

How the data were processed

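The authors aligned trimmed reads to mm10 with Bowtie2 2.2.9, kept unique alignments, called peaks with MACS2 2.1.1, kept those in both replicates, merged them over tissues and counted reads per region. The deposited values are raw counts. No removal of duplicates or of mitochondrial or blacklisted reads and no transposase shift is stated, and whether starts count from 0 or 1 is not stated, so coordinates are printed as deposited. Regions were assigned with curated RefSeq transcripts (NM and NR) of GRCm38. The members and gene lists were chosen with earlier results of these data known. edgeR 4.0.16 (R 4.3.3; TMM, glmQLFit with 1 term per tissue, 10 libraries, regions with at least 1 count) gave F tests, BM contrasts and pairwise contrasts, with Benjamini-Hochberg adjustment over all 49981 regions, and was tested on simulated counts. DESeq2 was version 1.42.0. Named regions were each promoter region, up to 3 others with the smallest F test p per gene and every TS OCR, decreased or intestinal region; the others were named after their values were seen. Some leading regions of the further gene lists are not reported here. DESeq2, other scalings, thinning, a GC and width correction, a replicate block and leaving out each library were the alternatives. Whether replicate numbers pair samples across tissues is not stated, and the main fit did not pair them.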

Additional observations from a re-analysis of the deposited data

How the results depend on the processing

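Leaving out 1 library at a time gave 27 to 51 regions that differed among tissues, 1 to 14 higher and 8 to 19 lower in BM (31.4% to 50.3%, 4.51% to 17.3% and 7.87% to 19.4% of all regions), 5 to 8 TS OCRs and 6 to 11 decreased peaks (7.83% to 14.4% and 10.1% to 13.8% of all regions), 0 to 2 higher in both intestines, 0 to 1 lower in both and 0 to 1 genes with a differing sum. Library totals in place of TMM gave 7 higher in BM (9.49% of all regions). Removing trends with GC content and width gave 14 TS OCRs (11.8% of all regions) and 1 region lower in both intestines (1.03% of all). It also gave 15 regions higher and 13 lower in BM (12.5% and 16.6% of all). An adjusted p in each contrast, a stricter rule for every region, left 2 TS OCRs and 4 decreased peaks. Its share of all regions is not given here. Only regions centred inside a gene, 34 in all, gave 17 that differed, 3 TS OCRs, 2 decreased peaks, 0 higher in both intestines, 5 higher and 6 lower in BM. With predicted RefSeq transcripts included, an alternative chosen after seeing the data, 55 regions were members, 54 of them among the 84, and 5 were TS OCRs, 0 higher in both intestines and 5 higher in BM. Beside these 2 memberships, 44.2% of all regions differed, 11.3% were TS OCRs and 12.7% were decreased. Of all regions, 2.18% were higher in both intestines, 14.9% were higher in BM and 17% were lower there. The replicate block gave 40 regions that differed, 10 higher and 16 lower in BM (44.1%, 14.5% and 17.1% of all regions) and changed no count by over 1.5 times. Same-numbered libraries of 2 tissues deviated together with correlations of -0.22 to 0.20, 4 of 10 over 0.1 and 5 negative. With 2 libraries per tissue, these values cannot decide whether the numbers pair samples. Of the BM differences at the region of each gene with the smallest F test p, none changed sign. With 2 libraries per tissue, small differences cannot be told from replicate spread.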
